A study of Canis lupus familiaris with 55 samples.

Results

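Expression of 31 genes for the synthesis, regulation and uptake of cholesterol was described in the gonads of canine embryos. The genes were chosen by name: enzymes from acetyl-CoA to cholesterol, the regulators of their transcription, and proteins of cholesterol uptake, transport, storage and efflux. Each gene was read from the locus of the study's transcript assembly that carries its name, and 28 of the 31 had a locus of their own among 58781 loci. No locus carried the name *HMGCS1*, *MSMO1* or *EBP*, and these 3 genes were not analysed here. Between the sexes the largest changes were in *SCARB1*, the receptor that takes up cholesterol from high-density lipoprotein, and *CYP51A1*, an enzyme that removes a methyl group from lanosterol. Both were higher in XY than in XX control gonads at d37-39 and at d44. Against gonads of XY littermates, both were lower in the XX DSD gonads at each age tested.

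Cells make cholesterol from acetyl-CoA by way of mevalonate, farnesyl diphosphate, squalene and lanosterol. The transcription factors SREBP1 and SREBP2, products of *SREBF1* and *SREBF2*, turn on the enzyme genes when membranes are low in sterol. SCAP escorts them out of the endoplasmic reticulum, and the INSIG proteins hold SCAP back when sterol is plentiful. In the fetal testis, Leydig cells convert cholesterol to androgens, with STAR delivering it to the mitochondria and CYP11A1 cutting its side chain.

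XX DSD is a disorder of sex development in which XX dogs without the Y-linked gene *SRY* form testes or ovotestes. Embryos at risk came from a model pedigree of American cocker spaniel and beagle ancestry and carried a guanine insertion on chromosome 9 that the study used as its marker. Their XX DSD gonads numbered 9 at d35 (4 embryos homozygous and 5 heterozygous for the insertion), 8 at d37-39 (6 and 2) and 6 at d41-44 (all homozygous). XY littermates carried the insertion as well and form testes, and they numbered 4 at d35 (3 homozygous, 1 heterozygous), 5 at d37-39 (all homozygous) and 3 at d41-44 (1 homozygous, 2 heterozygous). Controls came from beagle parents without the disorder: 6 XY and 6 XX embryos at d37-39 from 2 litters, 3 XY and 3 XX embryos at d44 from 1 litter, and 1 pool of each sex at d34. No histology was done on the sequenced gonads, so it is not known which XX DSD embryos at risk would have formed testis. Each library other than the pools held the paired gonads of 1 embryo. The study sequenced at-risk and control libraries in separate pools and does not state in which of them the XY littermates were. Between XX DSD and XX control gonads, breed, pedigree and sequencing pool therefore cannot be told apart.

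Values are FPKM, which are read counts scaled to transcript length and to the mapped fragments of the library, so that levels of different genes can be set side by side. A change is given as the difference of mean log2(FPKM + 1), which understates the change of low genes, with its standard error. A gene was called at a Benjamini-Hochberg adjusted p under 0.05 of limma's two-sided test, adjusted over all loci whose mean reached 1 FPKM in 1 of the 2 groups. Relative depth, estimated from the steps between low values, had group medians of 0.299 to 0.835, apart from the d34 pools (0.142 for XY and 0.358 for XX). Sertoli markers (3 of 5 with a locus of their own, among them *SOX9*) summed to 111 to 263 FPKM in XY libraries and 4.94 to 34.2 FPKM in XX libraries. Leydig markers (*STAR*, *CYP11A1* and *CYP17A1*, 3 of 5) summed to 1034 to 8788 FPKM in XY embryos and 161 to 2315 FPKM in XX embryos, the pools of d34 left aside. Pre-granulosa markers (6 of 6) summed to 133 to 306 FPKM in XX controls of d37-39 and d44. Endothelial markers (4 of 4) summed to 60.2 to 174 FPKM and macrophage markers (5 of 5) to 11.4 to 44.7 FPKM over all libraries. Germ cell markers (2 of 5) reached at most 0.857 FPKM. The adrenal cortex list was represented by *MC2R* alone, which was low but went with sex, at 1.88 to 3.102 FPKM in XY and 0.0914 to 0.448 FPKM in XX controls of d37-39, and at most 4.91 FPKM in any library. Its part in the differences between the sexes was not tested. The liver list reached 136 FPKM in XY controls of d44, where *APOA1* had a median of 121 FPKM, *ALB* 2.46 FPKM and *AFP* 0.211 FPKM.

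All 28 genes were read in every library. Their values ran from 2.64 FPKM for *NPC1*, which moves cholesterol out of lysosomes, in 1 XX DSD gonad of d35, to 758 FPKM for *SCARB1* in 1 XY control of d44. All 28 were therefore tested in every comparison, and no low-value filter removed any of them. *SC5D*, the desaturase that acts near the end of the pathway, has a further locus of its name on the opposite strand, which was not used. That locus overlaps the one used, with a mean of 7.33 FPKM beside 24.0 FPKM. Its medians at d44 were 7.76 FPKM in XY and 3.24 FPKM in XX controls. The library kit does not mark strand, so reads of *CYP51A1* and *AKAP9*, *ACAT2* and *TCP1*, *NSDHL* and *CETN2*, *DHCR7* and *NADSYN1*, *SREBF1* and *RAI1*, *NPC1* and *C18orf8*, *TM7SF2* and *ZNHIT2*, *MVD* and *ZNF469*, and *LSS* and *C21orf58* cannot be told apart where these loci overlap. The same holds for the 2 *SC5D* loci.

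**Figure D1:**
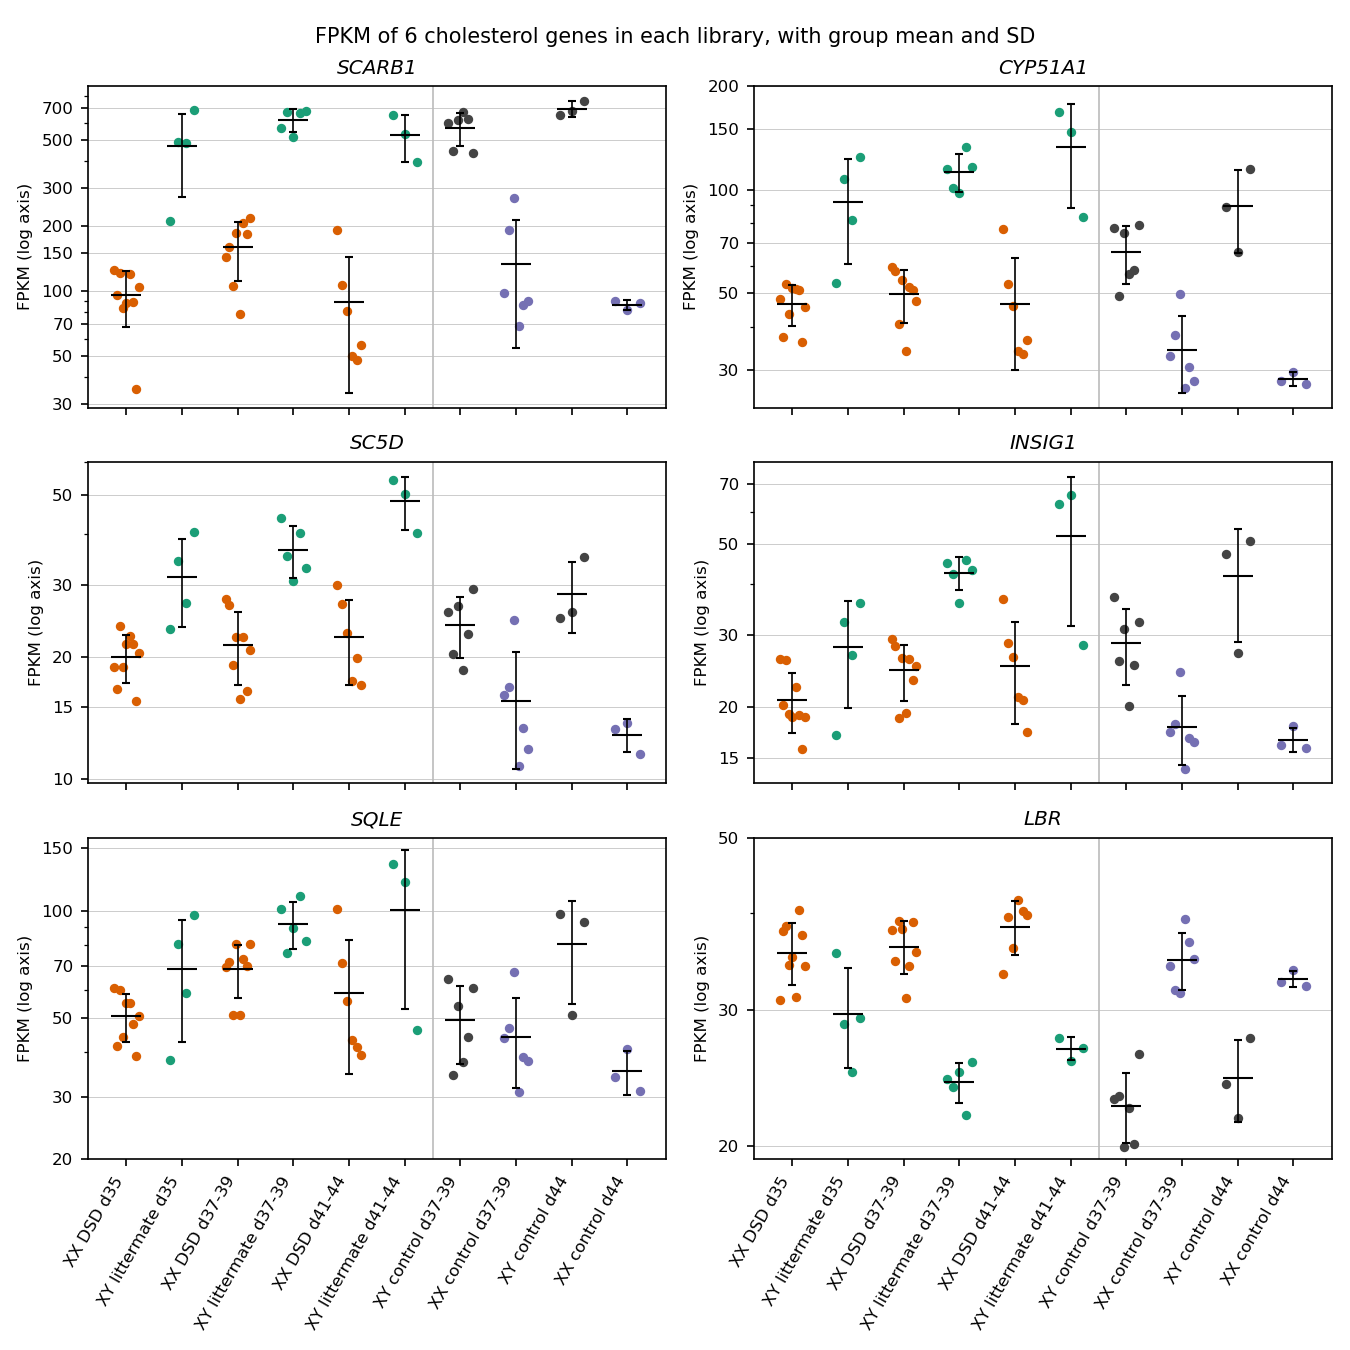
FPKM of 6 of the cholesterol genes in each library (points) by group, with the group mean as a line, on a log axis that differs between panels. *SCARB1* reaches 436 to 672 FPKM in XY and 68.7 to 268 FPKM in XX controls of d37-39, and *LBR* is lower in XY than in XX controls at d37-39 and d44.

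The comparison of XY with XX control gonads asked which of these genes differ between the fetal testis and ovary. At d37-39, 7 of 28 genes were higher and 1 was lower in XY gonads, against 13.8% of all loci higher and 12.7% lower. At d44, 11 genes were higher and 1 lower, against 12% and 12.8% of all loci. Over loci with a gene name (named loci), 18.8% were higher and 17.2% lower at d37-39, and 15.2% and 15.9% at d44. The median log2 change of the 28 genes was 0.24 at d37-39 and 0.48 at d44, beside 0.01 and -0.04 over all loci. XY means were higher for 23 of 28 genes at d37-39 and 25 of 28 at d44.

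*SCARB1* changed most. Its locus lies on chromosome 26 from 5059113 to 5140472 on the plus strand of CanFam3. At d37-39 it had 436, 607 and 672 FPKM (lowest, median, highest of 6) in XY controls, against 68.7, 93.4 and 268 FPKM in XX controls. Every XY library lay above every XX library. XX controls of d37 had 97.5, 190 and 268 FPKM, and those of d39, from another litter, had 68.7, 85.7 and 89.3 FPKM. The log2 change was 2.24 ± 0.30 (SE, adjusted p = 9.47e-05), a 4.24-fold ratio of means. At d44 *SCARB1* had 651, 677 and 758 FPKM in XY controls, against 81.3, 87.4 and 89.3 FPKM in XX controls. Here the groups lay far apart, with a log2 change of 3.00 ± 0.09 (adjusted p = 1.68e-05) and an 8.09-fold ratio.

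*CYP51A1*, on the minus strand of chromosome 14 from 17739443 to 17766960, had 49.3, 66.7 and 79.1 FPKM (lowest, median, highest) in XY controls of d37-39, against 26.6, 31.8 and 49.8 FPKM in XX controls. The groups overlapped only where the highest XX library passed the lowest XY library. Its log2 change was 0.94 ± 0.16 (adjusted p = 0.000784). At d44 it had 65.7, 88.8 and 115 FPKM in XY controls, against 27.2, 27.8 and 29.6 FPKM in XX controls, a log2 change of 1.60 ± 0.20 (adjusted p = 0.00272). XX controls of d44 varied little among themselves, whereas XY controls spread widely but stayed above them.

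Among the other late enzymes, *SC5D* had 18.5, 24.3 and 29.3 FPKM in XY controls of d37-39, against 10.8, 14.7 and 24.5 FPKM in XX controls. These ranges overlapped, and the log2 change was 0.62 ± 0.18 (adjusted p = 0.0197). At d44 *SC5D* had 24.9, 25.7 and 35.1 FPKM in XY controls, against 11.5, 13.2 and 13.8 FPKM in XX controls, and the log2 change of 1.08 ± 0.15 (adjusted p = 0.00407) came without overlap. *NSDHL* and *HSD17B7*, which act in the demethylation of sterols, and *TM7SF2*, a sterol reductase, were called only at d44, with log2 changes of 0.61, 0.65 and 0.73. Whether the change of these 3 genes differed between the ages was not tested.

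*LBR*, a protein of the inner nuclear membrane that also carries sterol reductase activity, went the other way. It had 19.9, 22.7 and 26.3 FPKM in XY controls of d37-39, against 31.6, 34.5 and 39.3 FPKM in XX controls. All 6 XY values were below all 6 XX values, with a log2 change of -0.61 ± 0.08 (adjusted p = 8.02e-05). At d44 *LBR* had 21.7, 24.1 and 27.6 FPKM in XY controls, against 32.2, 32.6 and 33.8 FPKM in XX controls, a log2 change of -0.42 ± 0.10 (adjusted p = 0.0286). It was the 1 gene of the 28 called lower in XY controls, at either age. *TM7SF2* and *LBR*, which share the reductase step, thus differed in opposite directions at d44.

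In the regulators, *INSIG1*, which retains SCAP and is itself a target of SREBP, had 20.1, 28.4 and 37.2 FPKM in XY controls of d37-39, against 14.1, 17.1 and 24.3 FPKM in XX controls. The ranges overlapped at a log2 change of 0.64 ± 0.15 (adjusted p = 0.00562). At d44 it had 27.0, 47.3 and 50.8 FPKM in XY controls, against 15.8, 16.1 and 17.9 FPKM in XX controls, a log2 change of 1.23 ± 0.24 (adjusted p = 0.0142). Of the other 4 regulators none was called. *SREBF1* had log2 changes of -0.37 (adjusted p = 0.057) at d37-39 and -0.35 (adjusted p = 0.053) at d44, below zero at both ages.

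Of 7 measured genes early in the pathway, none was called at d37-39 (median log2 change 0.31) and 3 were higher in XY gonads at d44 (median 0.48): *IDI1*, the isomerase of isopentenyl diphosphate, *MVK*, mevalonate kinase, and *ACAT2*, an acetyl-CoA acetyltransferase. *IDI1* had 35.6, 60.1 and 62.5 FPKM in XY controls of d44, against 24.1, 26.0 and 26.4 FPKM in XX controls. All XY values lay above, with a log2 change of 0.98 ± 0.22 (adjusted p = 0.023). *MVK* and *ACAT2* had log2 changes of 0.48 each (adjusted p = 0.00907 and 0.0383), and *ACAT2* kept its call in 5 of 13 alternatives. Whether these changes differed between the ages was not tested. *SQLE*, squalene epoxidase, had 51.0, 93.1 and 98.3 FPKM in XY controls of d44, against 31.2, 34.01 and 40.9 FPKM in XX controls, a log2 change of 1.12 ± 0.27 (adjusted p = 0.028). At d37-39 *SQLE* had 34.6, 49.2 and 64.2 FPKM in XY controls, against 31.0, 41.4 and 67.5 FPKM in XX controls, and the groups overlapped throughout.

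Among the transport genes, 4 of 6 were called higher in XY controls at d37-39 and 1 of 6, *SCARB1*, at d44, and the difference between the ages was not tested. *NPC1* had 6.63, 10.4 and 11.2 FPKM in XY controls of d37-39, against 5.53, 5.89 and 6.25 FPKM in XX controls. Every XY library was above every XX library, with a log2 change of 0.63 ± 0.11 (adjusted p = 0.000713). *NPC2*, its soluble partner in lysosomes, and *STARD4*, a cytosolic sterol carrier, had log2 changes of 0.43 and 0.26 (adjusted p = 0.000806 and 0.0436), and *STARD4* kept its call in 6 of 21 alternatives. *ABCA1*, which exports cholesterol to lipoprotein, and *SOAT1*, which makes cholesterol esters for storage, were not called at either age.

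**Figure D2:**
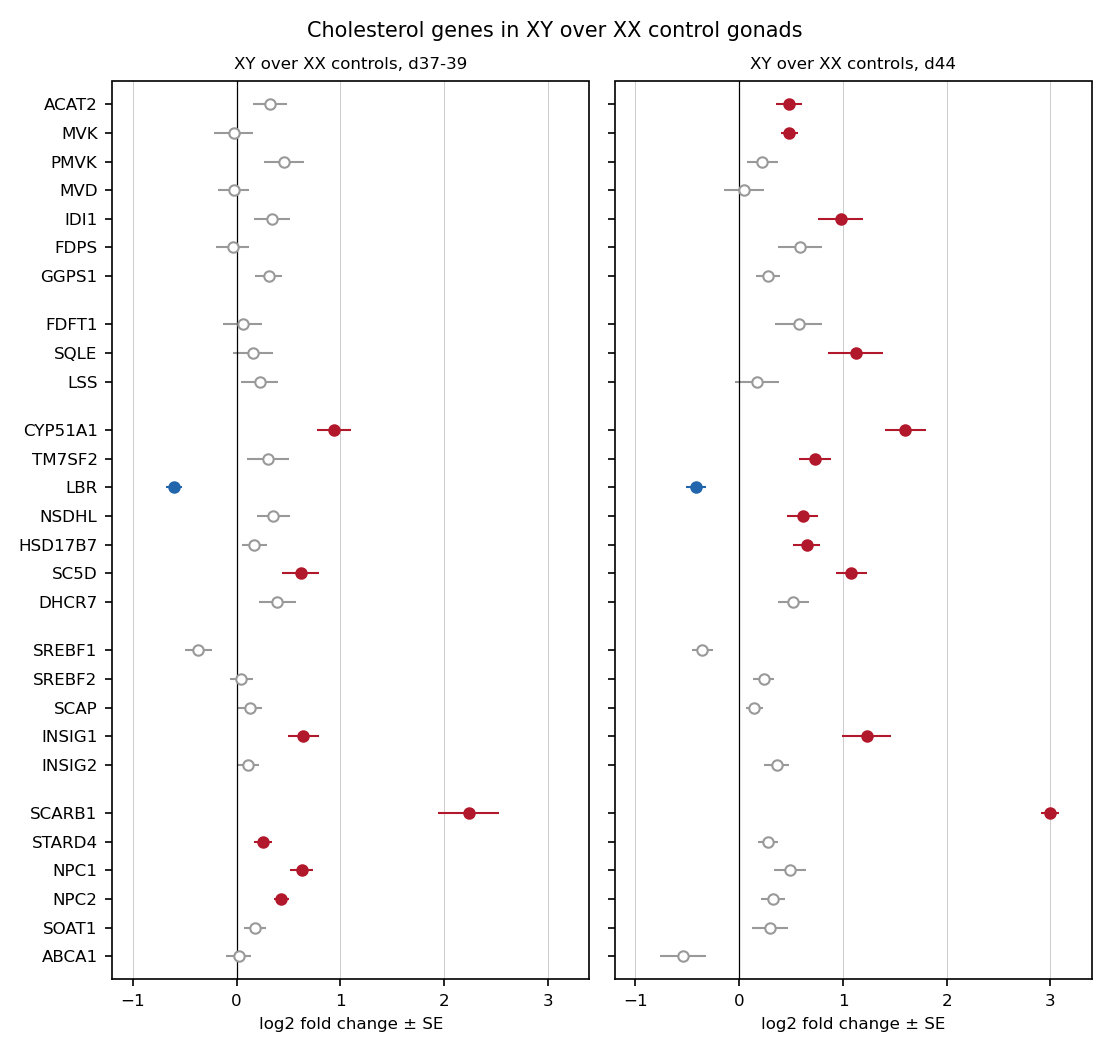
Log2 fold change of each of the 28 genes in XY over XX controls at d37-39 and d44, with the standard error as a bar and filled points for adjusted p under 0.05. *SCARB1* stands farthest from zero in every panel, and *LBR* is on the opposite side of zero from it.

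The Leydig markers moved with these differences. Their sum was 4068, 6023 and 7515 FPKM (lowest, median, highest) in XY controls of d37-39, against 383, 663 and 2315 FPKM in XX controls, and at d44 it was 7900 to 8788 FPKM, against 303 to 485 FPKM. Sertoli markers summed to 173 to 228 FPKM in XY controls of d37-39, against 9.01 to 12.1 FPKM in XX controls. In whole gonads, fewer cells of a type and less RNA of a gene per cell cannot be told apart, and the part of these cell types in the changes above was not tested. Leaving out any 1 XX control at d44 cut the number of genes called at that age to 5, 6 or 4, each time with no gene lower. *SCARB1*, *CYP51A1* and *SC5D* were called at both ages under every alternative setting tried.

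Age within the controls was compared next. No gene of the 28 was called between d44 and d37-39, in XX controls (2 at an unadjusted p under 0.05, limma) or in XY controls (also 2). Over all loci, 1.96% were higher and 0.646% lower at d44 in XX controls, and 0.0691% were higher and 0.0691% lower in XY controls. In XX controls the nominal changes were *HSD17B7* at -0.31 and *NPC2* at 0.18, and in XY controls *SQLE* at 0.68 and *ABCA1* at -0.62. The lowest adjusted p was 0.141 in XX and 0.352 in XY controls. *SCARB1* had 696 ± 55.7 FPKM (SD, n = 3) in XY controls of d44 and 565 ± 99.7 FPKM (n = 6) in those of d37-39, and 86.0 ± 4.18 FPKM in XX controls of d44 and 133 ± 78.6 FPKM in those of d37-39.

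The comparison of XX DSD with XX control gonads asked what differs in XX gonads at risk of forming testis. It uses the same XX controls as the comparison of the sexes, so the values of both stand side by side without further comparison. In the d37-39 groups, XX DSD gonads had 4 of the 28 genes higher and 2 lower, against 5.65% of all loci higher and 8.11% lower, with a median log2 change of 0.20 over the 28 genes and 0.09 over all loci. At d41-44, 7 genes were higher and 7 lower, against 19.3% and 29.2% of all loci, with medians of -0.02 and -0.09. Over named loci 9.27% were higher and 12.7% lower at d37-39, and 25.3% and 38% at d41-44. At d41-44 neither count of the 28 genes was above its share of named loci. The study lists the XX DSD embryos labelled d41 at another age, but staged them by development between d39 and d42. Without these embryos the calls at d41-44 were 8 higher and 12 lower, and without XX DSD replicate 1 alone 8 higher and 10 lower. With each library divided by its median over named loci the calls at d41-44 were 9 higher and 6 lower.

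At d37-39 the higher genes were *SQLE*, *IDI1*, *CYP51A1* and *INSIG1*. *SQLE* had 50.8, 70.8 and 80.9 FPKM (lowest, median, highest of 8) in XX DSD gonads, against 31.0, 41.4 and 67.5 FPKM in XX controls, a log2 change of 0.64 ± 0.16 (adjusted p = 0.0149). *IDI1* had 36.6, 47.7 and 58.9 FPKM in XX DSD gonads, against 24.2, 30.8 and 44.2 FPKM in XX controls, a log2 change of 0.55 ± 0.13 (adjusted p = 0.00952). Both were higher in median but overlapped, because 1 control, XX control d37-39 replicate 3, had the highest control value of each. *CYP51A1* had 34.1, 51.6 and 59.8 FPKM in XX DSD gonads, against 26.6, 31.8 and 49.8 FPKM in XX controls, a log2 change of 0.54 ± 0.15 (adjusted p = 0.0273). *INSIG1* had 18.8, 25.7 and 29.3 FPKM in XX DSD gonads, against 14.1, 17.1 and 24.3 FPKM in XX controls, a log2 change of 0.44 ± 0.12 (adjusted p = 0.0268). All 4 are known targets of SREBP, which also turns on the other enzyme genes. At an unadjusted p under 0.05 (limma), 12 of the cholesterol genes were higher and 3 lower, so more genes passed without adjustment than were called. SREBP activity was not tested. With libraries divided by their median over all loci, 0 genes were called higher and 2 lower (limma, 1 and 3 at an unadjusted p under 0.05). With the median over named loci the calls were 6 higher and 2 lower.

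The lower genes at d37-39 were *PMVK*, phosphomevalonate kinase, and *SREBF1*. *PMVK* had 6.22, 8.50 and 14.6 FPKM in XX DSD gonads, against 12.9, 13.9 and 14.9 FPKM in XX controls, a log2 change of -0.58 ± 0.14 (adjusted p = 0.0154). *SREBF1*, on chromosome 5 from 41663813 to 41688997, had 8.21, 10.6 and 15.1 FPKM in XX DSD gonads, against 13.8, 16.0 and 17.9 FPKM in XX controls, a log2 change of -0.52 ± 0.11 (adjusted p = 0.00855). XX controls were tightly grouped for both genes, and the highest XX DSD gonads reached into their range. None of the 6 calls held when litter entered as a random block in limma (0 called, 11 at an unadjusted p under 0.05). Without XX control d37-39 replicate 3 there were 10 calls.

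At d41-44 the genes called higher were *SC5D*, *INSIG2*, *IDI1*, *SOAT1*, *GGPS1*, *STARD4* and *LBR*. *INSIG2*, a relative of *INSIG1*, had 29.2, 29.7 and 32.0 FPKM (lowest, median, highest of 6) in XX DSD gonads, against 17.9, 18.2 and 19.2 FPKM in XX controls of d44. These were narrow ranges far apart, with a log2 change of 0.69 ± 0.05 (adjusted p = 7.89e-06). *SC5D* had 17.03, 21.3 and 30.01 FPKM in XX DSD gonads, against 11.5, 13.2 and 13.8 FPKM in XX controls, a log2 change of 0.73 ± 0.18 (adjusted p = 0.00758). *IDI1* had 30.9, 37.6 and 53.7 FPKM in XX DSD gonads, against 24.1, 26.0 and 26.4 FPKM in XX controls, a log2 change of 0.59 ± 0.16 (adjusted p = 0.0132). *SOAT1* had 47.0, 49.8 and 52.4 FPKM in XX DSD gonads, against 33.8, 34.7 and 34.7 FPKM in XX controls, a log2 change of 0.52 ± 0.05 (adjusted p = 2.28e-05). *GGPS1*, which makes the isoprenoid for protein prenylation, had 15.6, 17.3 and 19.3 FPKM in XX DSD gonads, against 11.2, 12.7 and 13.6 FPKM in XX controls, a log2 change of 0.44 ± 0.07 (adjusted p = 0.000912). The ranges of these 5 genes did not overlap. *STARD4* and *LBR* had log2 changes of 0.43 and 0.22, *LBR* with overlap.

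The genes called lower at d41-44 were *SREBF1*, *PMVK*, *MVD*, *LSS*, *SCAP*, *SREBF2* and *MVK*, which include both SREBP genes and their escort. *SREBF1* had 7.54, 8.37 and 9.54 FPKM in XX DSD gonads, against 16.5, 17.6 and 19.8 FPKM in XX controls, a log2 change of -1.01 ± 0.08 (adjusted p = 1.79e-05). *PMVK* had 6.98, 7.64 and 8.75 FPKM in XX DSD gonads, against 13.5, 14.6 and 15.7 FPKM in XX controls, a log2 change of -0.85 ± 0.08 (adjusted p = 2.38e-05). For both, the highest XX DSD gonad was far below the lowest XX control. *MVD*, mevalonate diphosphate decarboxylase, had 12.2, 14.5 and 18.1 FPKM in XX DSD gonads, against 24.5, 27.1 and 28.3 FPKM in XX controls, a log2 change of -0.82 ± 0.10 (adjusted p = 0.00015). *LSS*, lanosterol synthase, had 9.91, 11.0 and 18.0 FPKM in XX DSD gonads, against 18.8, 20.4 and 22.2 FPKM in XX controls, a log2 change of -0.71 ± 0.18 (adjusted p = 0.00873). *SCAP* had 46.1, 54.7 and 67.2 FPKM in XX DSD gonads, against 85.2, 87.3 and 88.2 FPKM in XX controls, a log2 change of -0.63 ± 0.11 (adjusted p = 0.00144). None of these ranges overlapped, and *SREBF2* and *MVK* had log2 changes of -0.55 and -0.53. *MVK* kept its call in 9 of 18 alternatives. Of the early enzymes, *IDI1* and *GGPS1* were thus higher and *MVK*, *PMVK* and *MVD* lower. Neither count of the 28 genes at this age was above its share of named loci.

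*SCARB1* was not called between XX DSD and XX control gonads. At d37-39 it had 78.4, 171 and 216 FPKM in XX DSD gonads, against 68.7, 93.4 and 268 FPKM in XX controls (log2 change 0.37, adjusted p = 0.56). At d41-44 it had 47.8, 68.0 and 190 FPKM, against 81.3, 87.4 and 89.3 FPKM (log2 change -0.15, adjusted p = 0.78). *CYP51A1*, *SQLE* and *INSIG1* missed the threshold at d41-44, with log2 changes of 0.64, 0.64 and 0.53 (adjusted p = 0.056, 0.099 and 0.055). Pre-granulosa markers summed to 115, 154 and 181 FPKM in XX DSD gonads of d41-44, against 257 to 306 FPKM in XX controls, and the Leydig markers to 355, 626 and 1925 FPKM, against 303 to 485 FPKM. Their part in the changes was not tested.

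XY littermates, compared with XY controls, differ in pedigree but not in sex. The d37-39 comparison had 3 genes higher and 0 lower in XY littermates, against 0.402% of all loci higher and 0.885% lower. Over named loci the shares were 0.637% and 1.62%. At an unadjusted p under 0.05, 10 genes were higher and 3 lower. The median log2 change of the 28 genes was 0.25, beside 0.34 over all loci and -0.0049 over loci with a gene name. At d41-44, 0 genes were higher and 3 lower, against 2.63% and 8.58% of all loci, with medians of 0.14 and -0.03, and 4 were higher and 7 lower without adjustment. Over named loci the shares at this age were 3.26% and 11.5%.

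*SQLE* had 76.0, 82.3, 89.7, 102 and 110 FPKM in XY littermates of d37-39, against 34.6, 49.2 and 64.2 FPKM (lowest, median, highest of 6) in XY controls, a log2 change of 0.91 ± 0.17 (adjusted p = 0.0413). *FDFT1*, squalene synthase, had 65.4, 77.3, 83.0, 87.5 and 94.3 FPKM in XY littermates, against 36.6, 40.8 and 64.3 FPKM in XY controls, a log2 change of 0.81 ± 0.17 (adjusted p = 0.0489). *CYP51A1* had 97.8, 101, 115, 116 and 133 FPKM in XY littermates, against 49.3, 66.7 and 79.1 FPKM in XY controls, a log2 change of 0.78 ± 0.14 (adjusted p = 0.0377). Every littermate was above every control for these 3 genes. The calls were unstable, with 10 genes called without XY control d37-39 replicate 6 and 0 when any of littermate replicates 2 to 5 or control replicates 1 to 5 was left out (limma, 11 to 15 genes at an unadjusted p under 0.05). Dividing each library by its median over all loci turned all 3 below zero, at -0.19 for *SQLE*, -0.29 for *FDFT1* and -0.32 for *CYP51A1*, and left 0 calls (4 genes at an unadjusted p under 0.05, all lower). Dividing by the median over named loci gave 4 calls, all higher. XY littermates of d37-39 listed a median of 2789 of 16007 short unnamed loci (single exon, at most 150 bp) above 10 FPKM, against 330 in XY controls.

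At d41-44 the 3 genes called lower were *MVK*, *SREBF1* and *SCAP*. *MVK* had 17.4, 17.5 and 19.5 FPKM in XY littermates, against 29.2, 29.7 and 33.0 FPKM in XY controls of d44, a log2 change of -0.72 ± 0.10 (adjusted p = 0.0285). *SREBF1* had 7.41, 7.78 and 8.90 FPKM in XY littermates, against 12.4, 14.1 and 14.9 FPKM in XY controls, a log2 change of -0.71 ± 0.12 (adjusted p = 0.0292). *SCAP* had 52.5, 67.6 and 69.5 FPKM in XY littermates, against 86.8, 101 and 101 FPKM in XY controls, a log2 change of -0.61 ± 0.15 (adjusted p = 0.0489). The groups did not overlap in any of the 3. Of 15 alternatives, *MVK* kept its call in 7, *SREBF1* in 8 and *SCAP* in 4. No call was left without XY littermate d41-44 replicate 1 or 2 or without XY control d44 replicate 1 or 2 (limma, 9 to 12 genes at an unadjusted p under 0.05), and 1 was left without littermate replicate 3. With litter as a random block 11 genes were called, 4 higher and 7 lower. These controls are of 1 litter and the littermates of 2 others, so that fit cannot separate litter from pedigree. With libraries divided by their median over named loci, 2 were higher and 2 lower.

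Whether the pedigree difference was unlike in the sexes was tested as an interaction over the 4 groups of each age. No gene of the 28 was called at d37-39 or at d41-44, against 0.00514% and 0.115% of all loci. At an unadjusted p under 0.05 (limma), 2 genes passed at d37-39, *MVK* with an XX minus XY difference of -0.53 and *ABCA1* with 0.47, and none at d41-44. The lowest adjusted p over both ages was 0.388.

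**Figure D3:**
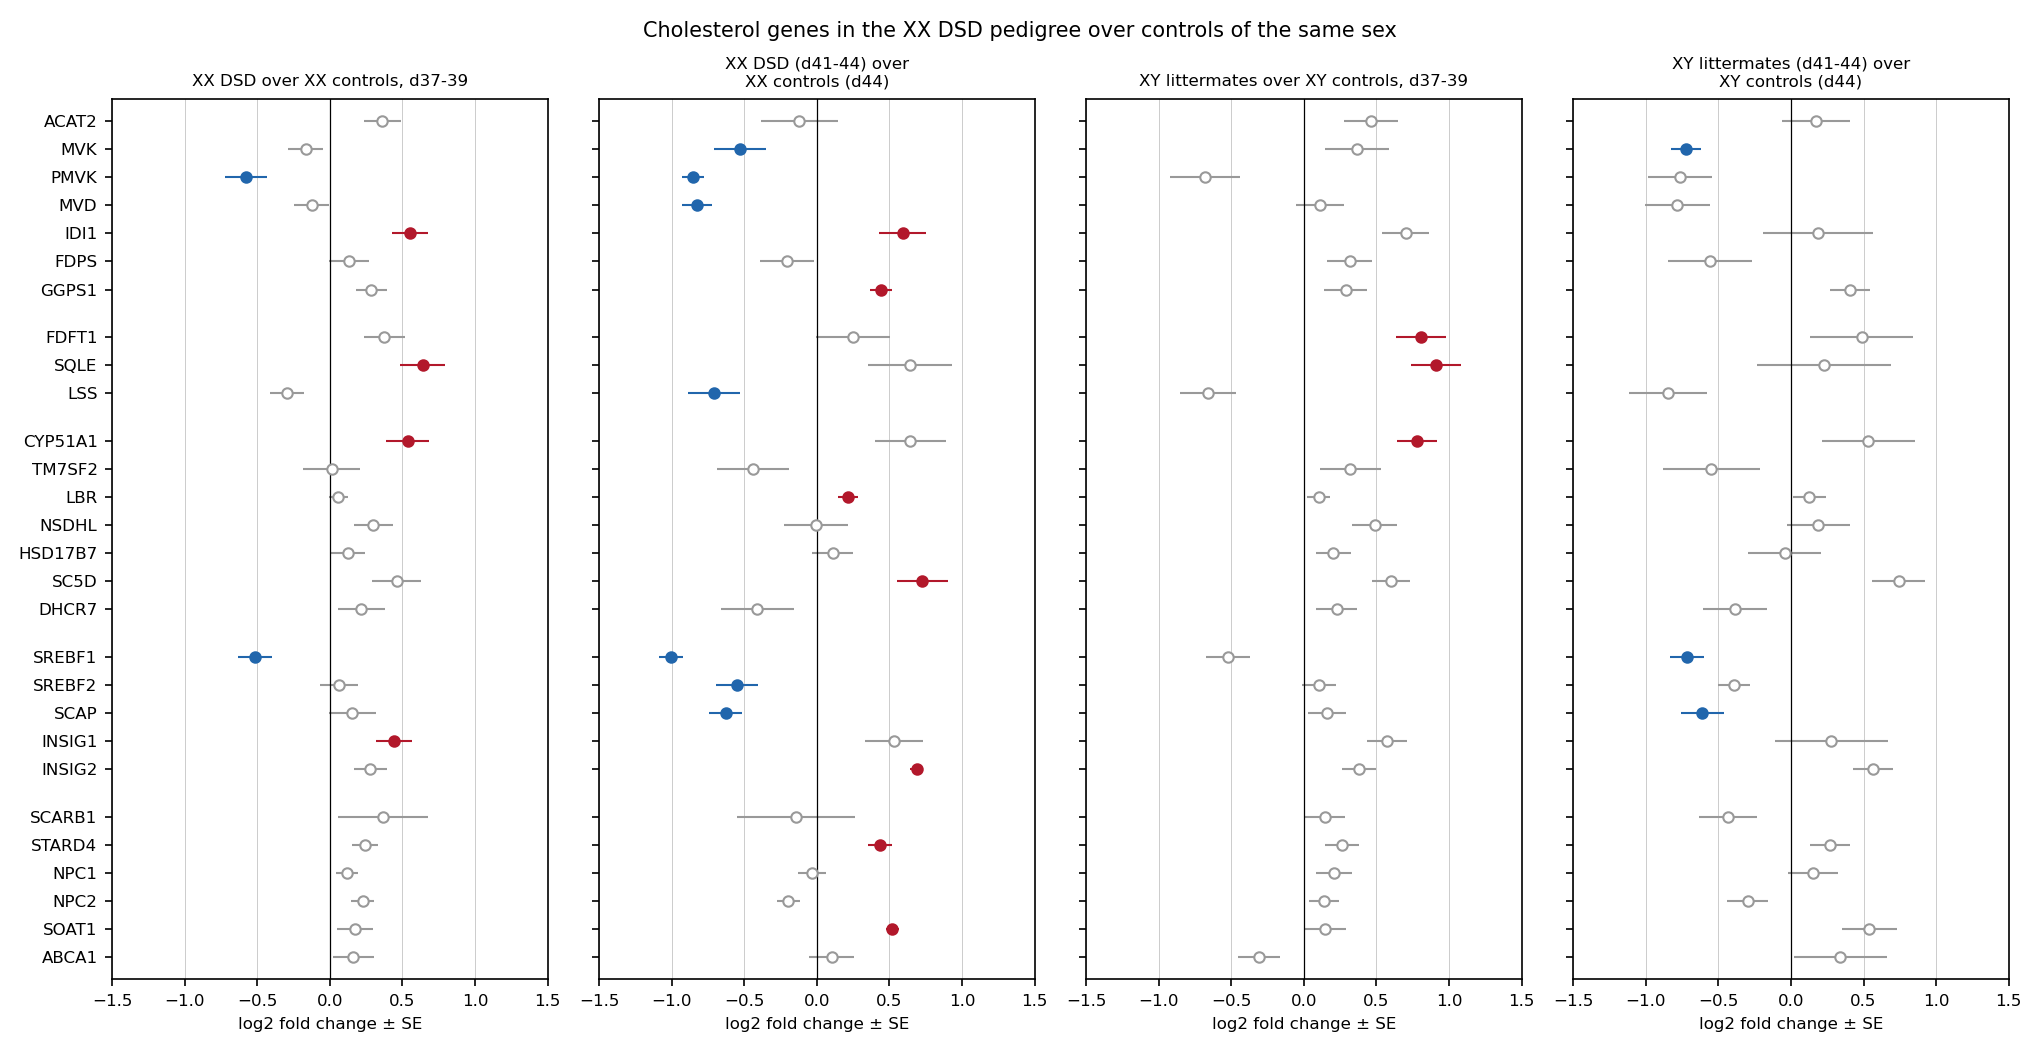
Log2 fold change of each of the 28 genes in XX DSD gonads over XX controls and in XY littermates over XY controls, at d37-39 and d41-44 (controls of d44), with standard errors as bars and filled points for adjusted p under 0.05. At d41-44 *SREBF1*, *SCAP* and *MVK* are called lower in both sexes, but in XY littermates these calls held in 8, 4 and 7 of 15 alternatives.

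The position of a gene among others went with its change at d41-44. Named loci within 500 kb of each gene were counted. The 7 genes higher in XX DSD gonads had 5 to 13 such neighbours (median 10), the 7 lower genes 14 to 39 (median 21), and the 14 not called 8 to 48 (median 12.5). The pattern was not particular to the cholesterol genes. Over 13609 named loci, the median log2 change of XX DSD over XX controls was 0.18, 0.09, -0.20 and -0.56 in 4 bins of equal rank from fewest neighbours (0 to 9) to most (27 to 124), and Spearman's rho across loci was -0.46. In XY littermates over XY controls the medians were 0.22, 0.13, -0.13 and -0.46. The pattern was also present over named loci at d37-39. There rho was -0.35 in XX DSD over XX controls and -0.33 in XY littermates over XY controls. Across the sexes within a pedigree, rho was between -0.10 and 0.06. Loci of 1 genome region and of 1 set of libraries are not independent, so rho is given as a description. Relative depth also differed at this age, with medians of 0.310 in XX DSD gonads of d41-44 and 0.835 in XX controls of d44, and of 0.299 in XY littermates and 0.599 in XY controls. Age differed too, since XX DSD gonads were of d41 to d44 and XY littermates of d41 and d42 by their labels. At d37-39 the depth medians were 0.568 in XX DSD gonads and 0.619 in XX controls, and 0.758 in XY littermates and 0.574 in XY controls. The part of depth was not tested, and between XX DSD and XX control gonads the sequencing pool and the pedigree cannot be told apart.

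**Figure D4:**
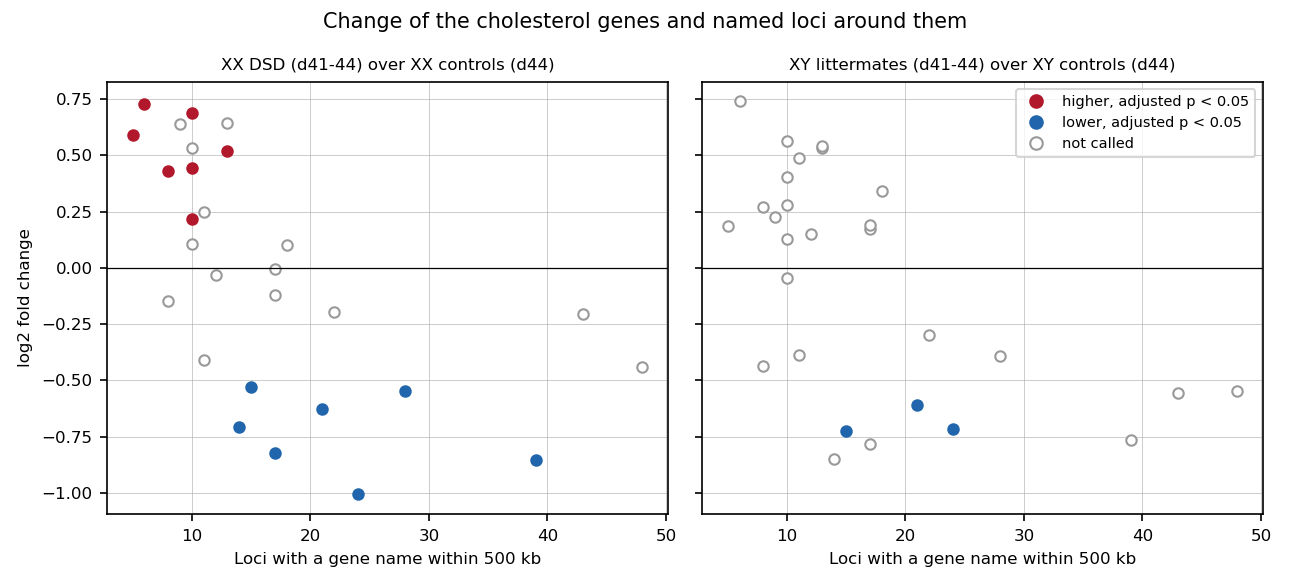
Log2 fold change of each of the 28 genes at d41-44 (vertical) against the number of named loci within 500 kb (horizontal), in XX DSD gonads over XX controls and in XY littermates over XY controls. The 7 genes higher in XX DSD gonads have 5 to 13 neighbours and the 7 lower genes 14 to 39.

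XX DSD gonads were then compared with those of XY littermates, which share the pedigree. The d35 comparison had 0 genes higher and 13 lower in XX DSD gonads, against 8.3% of all loci higher and 13.1% lower. At d37-39, 1 was higher and 8 lower, against 3.41% and 4.09%. At d41-44, 1 was higher and 8 lower, against 12.8% and 15.5%. The median log2 change of the 28 genes was -0.49, -0.35 and -0.36 at d35, d37-39 and d41-44, beside -0.05, -0.28 and 0.00084 over all loci. Over named loci, 9.24% were higher and 15.8% lower at d35, 8.73% and 10.6% at d37-39, and 16.8% and 20.2% at d41-44. The median over named loci at d37-39 was -0.0092.

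*SCARB1* was lower in XX DSD gonads at each age. At d35 it had 35.1, 96.1 and 125 FPKM (lowest, median, highest of 9) in XX DSD gonads, against 210, 481, 489 and 684 FPKM in XY littermates, a log2 change of -2.23 ± 0.33 (adjusted p = 0.000368). At d37-39 it had 78.4, 171 and 216 FPKM in XX DSD gonads, against 512, 565, 666, 669 and 682 FPKM in XY littermates, a log2 change of -2.01 ± 0.22 (adjusted p = 3.04e-05). At d41-44 it had 47.8, 68.0 and 190 FPKM in XX DSD gonads, against 393, 529 and 650 FPKM in XY littermates, a log2 change of -2.71 ± 0.42 (adjusted p = 0.00139). No XX DSD gonad reached the lowest XY littermate of its age.

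*CYP51A1* followed with log2 changes of -0.91 ± 0.18, -1.18 ± 0.13 and -1.49 ± 0.30 at d35, d37-39 and d41-44 (adjusted p = 0.00322, 2.92e-05 and 0.00568). At d35 it had 36.1, 48.1 and 53.3 FPKM in XX DSD gonads, against 53.6, 81.6, 108 and 124 FPKM in XY littermates. At d37-39 it had 34.1, 51.6 and 59.8 FPKM, against 97.8, 101, 115, 116 and 133 FPKM. The gap between the groups was narrow at d35, where the lowest littermate was just above the highest XX DSD gonad, and wide at d37-39. At d41-44 it had 33.3, 41.3 and 77.1 FPKM in XX DSD gonads, against 83.3, 147 and 168 FPKM in XY littermates.

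At d35 the 13 lower genes covered the pathway, with 5 of 7 early enzymes, *FDFT1*, 5 of 7 late enzymes, *SCARB1* and *NPC2*, and no regulator. *PMVK* had 9.07, 11.1 and 17.3 FPKM in XX DSD gonads, against 20.2, 20.5, 21.2 and 22.8 FPKM in XY littermates, a log2 change of -0.77 ± 0.16 (adjusted p = 0.00337). *IDI1* had 36.95, 41.8 and 46.9 FPKM in XX DSD gonads, against 53.8, 66.1, 73.9 and 79.7 FPKM in XY littermates, a log2 change of -0.69 ± 0.10 (adjusted p = 0.000313). Neither overlapped. *DHCR7*, the last reductase of the pathway, had 15.4, 34.3 and 39.6 FPKM in XX DSD gonads, against 38.2, 49.6, 67.6 and 67.8 FPKM in XY littermates, and it overlapped slightly at a log2 change of -0.83 ± 0.22 (adjusted p = 0.0176). With litter as a fixed factor only *SCARB1* (-1.91) and *IDI1* (-0.56) were called, and without XY littermate d35 replicate 4 or replicate 2 the calls numbered 6 or 7. Leydig markers summed to 161, 774 and 1052 FPKM in XX DSD gonads of d35, against 1034 to 6137 FPKM in XY littermates, and their part in these changes was not tested.

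At d37-39 and d41-44 *SC5D*, *INSIG1*, *NPC1* and *NSDHL* were called lower at both ages and *LBR* higher. *INSIG1* had 18.8, 25.7 and 29.3 FPKM in XX DSD gonads of d37-39, against 36.0, 42.3, 43.3, 45.1 and 45.8 FPKM in XY littermates, without overlap and with a log2 change of -0.78 ± 0.11 (adjusted p = 0.000317). *SC5D* had 15.7, 21.5 and 27.8 FPKM in XX DSD gonads, against 30.6, 33.0, 35.3, 40.2 and 43.7 FPKM in XY littermates, a log2 change of -0.76 ± 0.14 (adjusted p = 0.00249). *NPC1* had 5.51, 6.67 and 7.27 FPKM in XX DSD gonads, against 10.9, 11.1, 11.2, 11.6 and 11.7 FPKM in XY littermates, a log2 change of -0.72 ± 0.09 (adjusted p = 0.000102). *LBR* had 31.0, 36.8 and 39.02 FPKM in XX DSD gonads, against 21.9, 23.9, 24.4, 24.96 and 25.7 FPKM in XY littermates, a log2 change of 0.56 ± 0.07 (adjusted p = 6.5e-05). Littermates were again tightly grouped for *NPC1* and *LBR*, and no XX DSD gonad lay within their range.

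At d41-44 *SC5D* had 17.03, 21.3 and 30.01 FPKM in XX DSD gonads, against 40.3, 50.1 and 54.3 FPKM in XY littermates, a log2 change of -1.10 ± 0.19 (adjusted p = 0.00232). *INSIG1* had 17.4, 23.8 and 36.8 FPKM in XX DSD gonads, against 28.4, 62.6 and 66.0 FPKM in XY littermates, a log2 change of -0.97 ± 0.30 (adjusted p = 0.038). *NSDHL* had 20.7, 25.4 and 41.5 FPKM in XX DSD gonads, against 36.4, 53.6 and 57.8 FPKM in XY littermates, a log2 change of -0.81 ± 0.24 (adjusted p = 0.0355). Both *INSIG1* and *NSDHL* overlapped through XY littermate d41-44 replicate 3, without which 14 genes were called. At this age *INSIG1* kept its call in 5 of 18 alternatives and *NSDHL* in 8 of 18, and with litter as a fixed factor 5 genes were lower, without these 2. *INSIG2* and *SOAT1* were also called lower and kept their calls in 17 and 16 of 18. *INSIG2* had 29.2 to 32.0 FPKM in XX DSD gonads, against 34.3 to 37.4 FPKM in XY littermates, and *SOAT1* 47.0 to 52.4 FPKM, against 59.3 to 68.0 FPKM. *LBR* had 33.4, 39.7 and 41.5 FPKM in XX DSD gonads, against 25.8, 26.8 and 27.6 FPKM in XY littermates, a log2 change of 0.50 ± 0.07 (adjusted p = 0.00102).

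Within groups the enzymes often ranked together by library. FPKM of the 17 enzymes with a locus were summed. XX control d37-39 replicate 3 had the highest value of its group for 24 of 28 genes and an enzyme sum of 760 FPKM, against 472 to 582 FPKM in the other 5, and its Leydig marker sum of 2315 FPKM was the highest of its group as well. In XX DSD gonads of d41-44, replicate 1 was highest for 20 genes, with an enzyme sum of 772 FPKM and a Leydig sum of 1925 FPKM, against at most 1211 FPKM in the others. XY littermate d35 replicate 1 was lowest for 19 genes, with an enzyme sum of 714 FPKM and a Leydig sum of 1034 FPKM. Elsewhere the sums parted: XY littermate d41-44 replicate 3 was lowest for 22 genes, at an enzyme sum of 567.6 FPKM beside 905 and 1042 FPKM, while its Leydig sum of 7564 FPKM lay between the other two. XY control d44 replicate 2 was lowest for 17 genes, at 615 FPKM, and had the highest Leydig sum, 8788 FPKM.

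**Figure D5:**
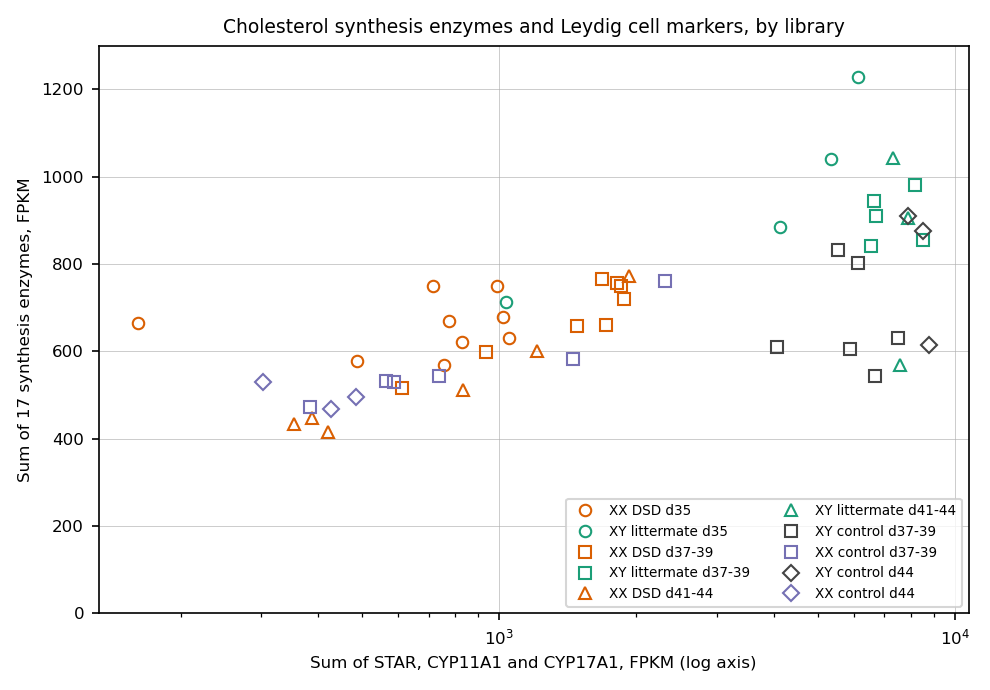
Summed FPKM of the 17 enzymes (vertical) against summed FPKM of *STAR*, *CYP11A1* and *CYP17A1* (horizontal, log axis), 1 point per library. XY controls of d37-39 and d44 lie at 4068 FPKM or more on the horizontal axis and XX controls at 2315 FPKM or less, and XY littermate d41-44 replicate 3 combines a Leydig sum of 7564 FPKM with an enzyme sum of 567.6 FPKM.

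By group, the enzyme sum was 656 ± 65.1, 677 ± 87.4 and 530 ± 137 FPKM (SD, n = 9, 8 and 6) in XX DSD gonads of d35, d37-39 and d41-44. In XY littermates it was 967 ± 219, 906 ± 58.6 and 838 ± 244 FPKM (n = 4, 5 and 3). XY controls had 671 ± 118 FPKM (n = 6) at d37-39 and 800 ± 161 FPKM (n = 3) at d44, and XX controls 570 ± 99.6 and 498 ± 30.8 FPKM (n = 6 and 3). XY means were thus above XX means of the same pedigree in each of these age groups. In the d34 pools the order was reversed, at 613 FPKM in the XY and 704 FPKM in the XX pool, with 1 library each.

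Genes related to the pathway were counted in the same fits, beside the shares of all loci given above. In XY over XX controls these were 13.8% higher and 12.7% lower at d37-39, and 12% and 12.8% at d44. In XX DSD over XX controls they were 5.65% higher and 8.11% lower at d37-39, and 19.3% and 29.2% at d41-44. In XX DSD over XY littermates, 13.1%, 4.09% and 15.5% were lower at d35, d37-39 and d41-44. Of 14 to 15 other tested genes of cholesterol handling, 7 were higher and 3 lower in XY over XX controls at d37-39, and 8 and 3 at d44. The lipoprotein receptor genes *LRP8* (log2 change 1.87) and *VLDLR* (1.51) and the lysosomal lipase gene *LIPA* (1.02) were higher in XY controls of d37-39, and the exporter gene *ABCG1* was lower (-0.85). Of 8 fatty acid genes under SREBP control, 4 were higher and 1 lower in XY controls at d37-39, and 6 and 1 at d44. *FADS2* and *FADS1*, desaturases of polyunsaturated fatty acids, had log2 changes of 1.62 and 1.18 at d37-39. In XX DSD gonads over XX controls, 1 fatty acid gene was higher and 1 lower at each age, and *FASN*, fatty acid synthase, was the lower gene, at -0.42 and -0.96. Of 5 genes that make steroids from cholesterol, all 5 were higher in XY controls at both ages, with median log2 changes of 2.87 and 3.85. All 5 were lower in XX DSD gonads than in XY littermates at each age. Of 5 genes on other branches of the mevalonate pathway, none was called between the sexes in controls, and 2 were higher in XX DSD over XX controls at d37-39. At d41-44, 3 were higher, among them *NUS1*, part of the enzyme for dolichol synthesis, at 0.76, and *FNTB*, a farnesyltransferase subunit, was lower at -0.47.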

How the data were processed

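Poly-A RNA-seq libraries of canine embryonic gonads were analysed. The deposited values are FPKM. To make them, cutadapt was run by the authors on single-end reads (the submitters' notes give 1.5 and Methods another version), followed by alignment to CanFam3 in TopHat2 2.0.13 and scaling of all libraries by Cuffnorm of Cufflinks 2.2.1 over a transcript assembly built on the annotation. The assembly gives positions and names of the loci. A further table, of annotated genes in the same libraries, lists identifiers without symbols and was not used here. FPKM holds no counts, so no interval for counting error is given. Relative depth was read from the ratio most common between libraries among values of at most 0.15 FPKM, and it varied by less than 0.1 log2 for 53 of 55 libraries. Named loci of libraries of 1 group correlated at 0.908 to 0.985 across genes, and no pair of libraries was identical. Over all loci with a mean of at least 1 FPKM, these correlations ran from 0.190 to 0.977. Median correlations per library were 0.366 to 0.559 in XY littermates of d37-39 and 0.719 to 0.825 in XX DSD gonads of that age.

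Groups came from the sample labels, and animals from the column names. Embryos at risk of d41 to d44 were kept as 1 group. The study's sample list gives d38 for 2 XX DSD embryos and 1 XY littermate that the labels give as d41. Each comparison was fitted on its 2 groups, and the interactions on 4, on log2(FPKM + 1). The fit used lmFit and a trended eBayes of limma 3.58.1 (R 4.3.3, data.table version 1.17.8), and two-sided p-values were adjusted by Benjamini-Hochberg over each locus that had a mean of 1 FPKM or more in either group. The fit was tested on simulated data. Embryos of 1 litter are not independent, and p-values measure the spread between embryos. The d34 pools were described only. Sums and figures were made in Python 3.11.15 with pandas 2.3.3, numpy 2.4.6 and matplotlib 3.10.9.

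The genes, their lists and the lists of cell type markers were chosen with earlier results of these data known. In each comparison, library values are given for up to 5 genes per direction with the largest change among those called, and up to 4 genes of each related list by adjusted p. Further genes were named after their values were seen. Some genes of the related lists are not reported here. Alternatives were another pseudocount, other filters and scalings, limma without trend, litter as a factor or block, d39 embryos alone, without the embryos labelled d41, and leaving out each library in turn. Loci with a gene name alone, and scaling to their median, were added after seeing the data. Sequences were not analysed.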

Additional observations from a re-analysis of the deposited data

Results flagged for a closer look

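A library far from the others of its group by Dixon's gap test was found in 13 of 196 sets of a gene and a group, where chance flags about 1 in 20 (9.8 expected). Of these, 4 were in XX control d37-39 replicate 3, the highest of its group: *HSD17B7* at 35.2 FPKM (next highest 28.2 FPKM), *MVK* at 27.0 FPKM (23.2 FPKM), *STARD4* at 4.96 FPKM (3.96 FPKM) and *TM7SF2* at 29.8 FPKM (19.9 FPKM). In XX DSD d35 replicate 8, 3 genes were lowest by far: *NPC1* at 2.64 FPKM (next lowest 5.73 FPKM), *SCAP* at 44.1 FPKM (71.6 FPKM) and *SCARB1* at 35.1 FPKM (82.9 FPKM). XY control d37-39 replicate 6 was highest for *INSIG2* at 31.5 FPKM (next highest 22.03 FPKM) and *SOAT1* at 57.6 FPKM (44.9 FPKM). XY littermate d35 replicate 4 was highest for *MVK* at 39.1 FPKM (27.0 FPKM) and lowest for *NPC2* at 103 FPKM (next lowest 113 FPKM). *NSDHL* was highest in XX DSD d37-39 replicate 8 at 59.5 FPKM (43.6 FPKM), and *SREBF1* in XX DSD d35 replicate 1 at 15.4 FPKM (11.5 FPKM).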

How the results depend on the processing

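In XY littermates over XY controls at d37-39 (3 of 28 genes called), the number was 6 with a pseudocount of 0.1 FPKM, 6 with the filter set at 4 FPKM, 8 over named loci alone, and 0 with no filter, without the trend, with a random block for litter or with libraries divided by their median over all loci. That scaling moved the median of all loci by over 0.1 log2, to -0.30 where it had been 0.34, and turned *FDFT1* (-0.29), *SQLE* (-0.19) and *CYP51A1* (-0.32) below zero, with adjusted p of 0.68, 0.78 and 0.63 in limma. At d41-44 (3 called), it was 5 with the smaller pseudocount, 7 at 4 FPKM, 9 over named loci, 11 with a random block for litter, and 0 with no filter, without the trend or without embryos labelled d41. In XX DSD over XX controls at d37-39 (6 called), it was 2 with libraries divided by their median over all loci and 0 with litter as a block. In XX DSD over XY littermates it was 2 at d35 with litter as a fixed factor (13 called) and 18 at d37-39 over named loci alone (9 called), where fewer loci were adjusted over. In XX DSD over XX controls at d41-44 (14 called) it was 20 without embryos labelled d41. The causes were not tested otherwise.

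Leaving out 1 library gave 7 to 10 calls in XY over XX controls at d37-39 and 4 to 14 at d44 (14 without XY control d44 replicate 2). It gave 4 to 10 and 11 to 18 calls in XX DSD over XX controls, and 0 to 10 and 0 to 5 in XY littermates over XY controls, at the earlier and the later age. In XX DSD over XY littermates it gave 6 to 17 at d35, 8 to 11 at d37-39 and 7 to 14 at d41-44. The age comparisons had 0 calls under each alternative run for them, and the interactions had 0 over named loci, the one alternative run for them. *SCARB1* was called under each alternative in XY over XX controls (2.08 to 2.80 at d37-39, 2.94 to 3.05 at d44) and in XX DSD over XY littermates. Over all genes called, 1215 values under an alternative kept their call, 225 lost it and 3 changed sign. Replicate numbers name embryos and pair none, so embryos were tied across groups by litter alone, as above. The annotated table was not run, since its identifiers are not paired with symbols here, and the median over all loci was 0 in a library of XX DSD over XY littermates at d37-39, which gave no value there. Depth of the values is unknown beyond the ratios given.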

Other observations

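The d34 pools, 1 library of each sex from several embryos each, entered no test. *SCARB1* had 144 FPKM in the XY pool and 67.7 FPKM in the XX pool, while their Leydig marker sums were 246 and 229 FPKM and their Sertoli marker sums 139 and 19.5 FPKM. *CYP51A1* had 35.3 FPKM in the XY pool and 41.7 FPKM in the XX pool, *SQLE* 22.9 and 52.9 FPKM, and *SC5D* 9.49 and 14.9 FPKM. *LBR* had 44.0 FPKM in the XY pool and 34.7 FPKM in the XX pool, and *SREBF1* 25.2 and 12.98 FPKM. With 1 library per sex these differences have no replicate check.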
